A study of Mus musculus with 15 samples.

Results

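HITS-CLIP peaks of Ago2 and of Sfpq that lay at microRNA genes were examined in P19 cells. Members were all peaks whose gene symbol begins with Mirlet7 or with Mir and a digit. This gave 752 of the 75980 peaks in the 5 full peak lists of the series. Another 6 lists hold control Ago2 and Ago2-let-7a peaks that were reduced with siSfpq, called dismissed here, and each of their peaks was found again in its full list.

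P19 is 1 line of mouse embryonal carcinoma that serves as a stand-in for embryonic stem cells. Ago2 is the protein that carries a miRNA to its targets, and Sfpq is a nuclear RNA-binding protein. HITS-CLIP fixes a protein to the RNA it touches by UV light, pulls it down with an antibody and sequences the RNA that comes with it. There were 15 libraries, 3 for each of 5 conditions. Ago2 was pulled down from cells given a let-7a mimic, siSfpq (siRNA against Sfpq), or both together, and Sfpq from cells given siSfpq and from control cells. The control Ago2 list comes from cells given a control mimic and a control siRNA, and its libraries were not analysed here. The methods of the study take this list from an earlier report, so siSfpq and control Ago2 peaks are set against each other across experiments. All lists were called on merged replicates, so no value below has a spread between cultures, no test across samples was possible, and intervals cover counting error only.

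A miRNA is cut from a longer transcript: Drosha releases a hairpin in the nucleus, Dicer cuts the hairpin to a short duplex, and 1 arm of it, named 5p or 3p, is usually kept by an Argonaute protein. The mature arm finds its targets mainly through its seed, bases 2 to 8, so miRNAs with the same seed form a family. Many miRNA genes stand in clusters on 1 transcript, and the miR-290 and miR-302 clusters are known for their high level in pluripotent mouse cells, while let-7 is held low there by Lin28 and rises on differentiation.

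Of the 190 mature arms that carried an Ago2 peak in the siSfpq or the control list, 165 had a sequence in the RefSeq table of build GRCm38.p6. They held 135 different seeds, of which 7 occurred at 3 or more loci. The arms of the 5 seeds that were found at most loci are shown because the read counts below fall on these families. Each sequence runs 5′ to 3′ and capitals mark the seed. The seed AUUGCAC was carried by 5 arms at 6 loci.
miR-92a-3p: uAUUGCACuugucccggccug
miR-92b-3p: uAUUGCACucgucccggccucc
miR-25-3p: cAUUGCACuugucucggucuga
miR-363-3p: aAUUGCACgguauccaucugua
miR-367-3p: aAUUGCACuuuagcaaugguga

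The let-7 seed was found under Ago2 peaks at 6 loci, in arms that differ outside the seed.
let-7a-5p: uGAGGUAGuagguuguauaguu
let-7b-5p: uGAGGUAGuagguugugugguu
let-7c-5p: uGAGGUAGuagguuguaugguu
let-7e-5p: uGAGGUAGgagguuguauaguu

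The miR-17 family and the shared seed of the miR-290 and miR-302 clusters overlap by all but 1 base, offset by 1 position. Each occurred at 5 loci among the arms with a sequence. Arms without one, among them miR-302a-3p with 180 reads in siSfpq cells and 15 in control cells, are not counted in any seed family.
miR-17-5p: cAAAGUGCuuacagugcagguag
miR-20a-5p: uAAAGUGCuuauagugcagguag
miR-20b-5p: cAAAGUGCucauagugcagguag
miR-93-5p: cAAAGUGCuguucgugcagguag
miR-106a-5p: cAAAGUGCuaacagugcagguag
miR-291a-3p: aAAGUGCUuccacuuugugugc
miR-294-3p: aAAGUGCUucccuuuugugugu
miR-295-3p: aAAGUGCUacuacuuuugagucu
miR-302b-3p: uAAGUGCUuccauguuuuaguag
miR-302d-3p: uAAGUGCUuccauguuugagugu

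The miR-181 family, which is expressed in many tissues, had Ago2 peaks at 5 loci.
miR-181a-5p: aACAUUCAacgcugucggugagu
miR-181b-5p: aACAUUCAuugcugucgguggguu
miR-181c-5p: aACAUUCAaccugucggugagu

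The symbols come from the authors' annotation to the nearest gene, so the position of each peak was first set against the annotated hairpins. In siSfpq cells 176 of 357 miRNA-annotated Ago2 peaks lay on a hairpin (49.3%, 95% Wilson interval 44.1 to 54.5), and in control cells 50 of 69 did (72.5%, 61.0 to 81.6). Over all Ago2 peaks, whatever their symbol, 0.663% in siSfpq cells and 2.66% in control cells lay on a hairpin. The share was lower in the scored lists. Of the peaks gained in cells with let-7a and siSfpq over cells with let-7a alone, called recruited, 12 of 90 were on a hairpin (13.3%, 7.79 to 21.9, beside 0.136% of all recruited peaks). Of the Ago2-let-7a peaks, gained with the let-7a mimic over control, 11 of 33 were (33.3%, 19.8 to 50.4, beside 0.262%). Of the Sfpq peaks, from the comparison of siSfpq with control cells, 20 of 203 were (9.85%, 6.47 to 14.7, beside 0.0673%). A miRNA symbol therefore stood for a hairpin in most control Ago2 peaks and for flanking sequence in most Sfpq peaks. The hairpin was not always that of the symbol. Of the peaks on a hairpin, 51 of 176 in siSfpq cells and 14 of 50 in control cells lay on a hairpin of another symbol.

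**Figure D1:**
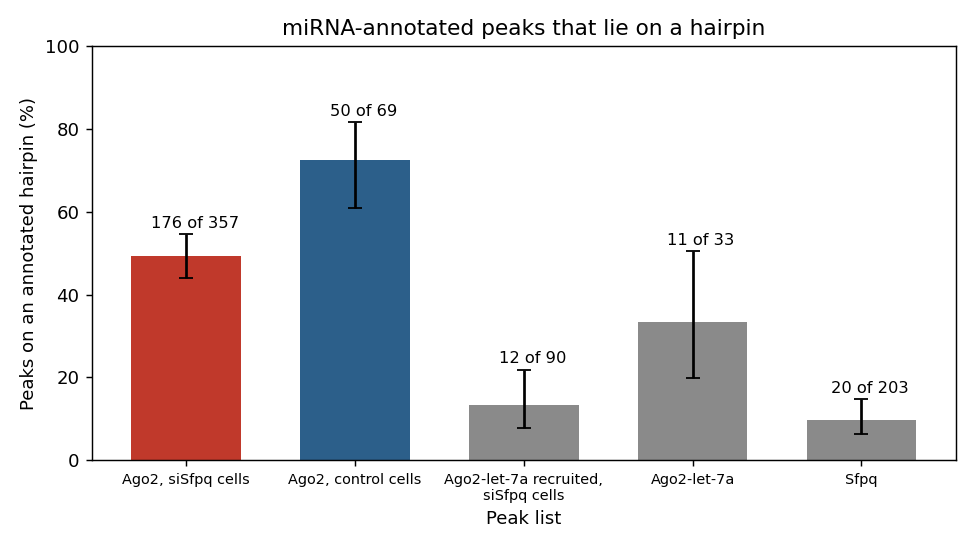
Share of miRNA-annotated peaks that overlap an annotated hairpin on the same strand, in percent, for the 5 full peak lists. Bars are shares with 95% Wilson intervals and the counts above them, from 72.5% of the control Ago2 peaks to 9.85% of the Sfpq peaks.

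On the hairpins, Ago2 peaks had the place of the mature miRNA, and their length was close to that of all Ago2 peaks. The median length of hairpin peaks was 27 nt in siSfpq cells and 30 nt in control cells. Over all Ago2 peaks it was 26 nt in siSfpq cells and 30 nt in control cells. The miRNA-annotated Ago2 peaks off the hairpins were longer, with medians of 60 and 111 nt in siSfpq and control cells. All 50 control peaks on a hairpin and 173 of 176 siSfpq peaks touched a mature arm. Both peak ends lay within 6 nt of the arm's ends in 123 of 173 siSfpq peaks (71.1%, 63.9 to 77.3) and in 38 of 50 control peaks (76.0%, 62.6 to 85.7). The median peak began 2 nt before the arm in siSfpq cells and 3 nt before it in control cells, and ended 3 and 4 nt after it. Libraries were cut to short inserts, which limits how long such a peak can be where a single arm is covered. Sfpq peaks on hairpins were different in shape: their median length was 67.5 nt and 2 of 16 that touched an arm had both ends within 6 nt of it.

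**Figure D2:**
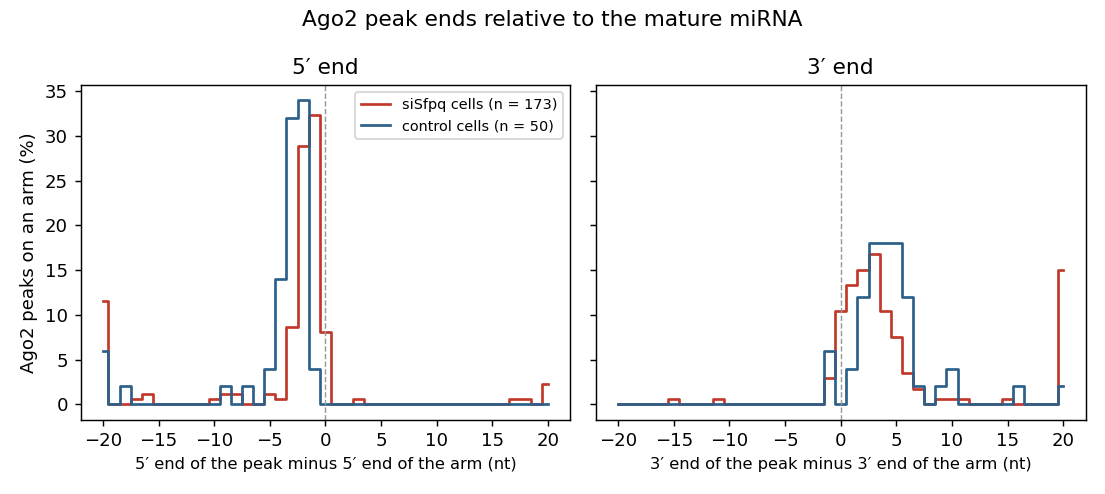
Distance in nt of the 5′ end (left) and the 3′ end (right) of Ago2 peaks from the same end of the mature arm, as a percent of the 173 siSfpq and 50 control peaks on an arm. Distances beyond 20 nt are gathered at the outermost positions, and most peaks lie within 6 nt of the arm's ends in both lists.

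Peaks lay on both arms of the hairpins. A peak that touched both arms of 1 hairpin, as 15 of the 173 siSfpq peaks and 1 of the 50 control peaks did, was given to the arm with the longer overlap. Among arms named below, this holds for the siSfpq peaks of miR-182-5p, miR-127-3p, miR-208a-3p, miR-208b-3p, miR-93-5p, miR-106b-3p and miR-3063-3p. In siSfpq cells 79 peaks lay on a 5p arm, 80 on a 3p arm and 14 on an arm without such a name, and in control cells 28, 19 and 3. Each arm of 1 hairpin carried a peak of its own in 19 hairpins in siSfpq cells and in 4 in control cells. Some arms are annotated at more than 1 locus with the same sequence (11 of these arms, among them let-7a-5p, let-7c-5p, miR-92a-3p and miR-16-5p), and mapped reads cannot tell which copy they came from.

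Ago2 peaks were found on 178 hairpins in siSfpq cells and on 49 in control cells. Of these, 47 hairpins had a peak in both lists, 131 in the siSfpq list only, and 2, Mir99a and Mirlet7a-2, in the control list only. The let-7a-5p sequence of Mirlet7a-2 also stands at Mirlet7a-1, which had a siSfpq peak, so its absence from the siSfpq list is by locus only. The siSfpq list was the longer one for all genes, with 29734 peaks against 2065 in the control list, and library totals are not in the files. The file header of the siSfpq list names both siCtr- and siSfpq-transfected cells, whereas the study's methods name siSfpq cells, and the list was read in this way. Read counts of the 2 lists are therefore given side by side, with their ranks, and without a fold change.

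The read counts on hairpins ranged from 11 to 17696 in siSfpq cells (median 35) and from 10 to 151 in control cells (median 13). Over all peaks the medians were 22 in siSfpq cells and 12 in control cells. Where a control peak on a hairpin was touched by a siSfpq peak, the siSfpq count was the higher in 47 of 48 cases, and the same held for 1616 of 1660 control peaks of all genes, so miRNA loci were in this like the whole list. The exception was the 5p arm of Mir181a-2, with 12 reads in each list. Its sequence is also annotated at Mir181a-1, so its reads cannot be assigned to 1 locus.

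The highest counts lay on 2 loci outside the stem cell clusters. The single siSfpq peak on miR-6236 held 17696 reads (rank 10 of the list), and the control list held 3 overlapping peaks there with 151 reads each (rank 7), which are 1 site listed 3 times. The peak on miR-6240, annotated as intergenic by the authors and thus outside the symbol rule, held 3260 reads in siSfpq cells and 26 in control cells. Neither lies in an annotated host gene, and whether the reads came from a miRNA of these loci was not tested.

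The miR-183 cluster, known from sensory organs and also active in embryonic stem cells, came next. The peak on miR-182-5p held 1957 reads in siSfpq cells (95% Poisson interval 1870 to 2050, rank 68) and 27 in control cells (17.8 to 39.3, rank 132). That on miR-183-5p held 1493 reads in siSfpq cells (1420 to 1570, rank 91) and 24 in control cells (15.4 to 35.7, rank 172). Both arms were thus high in both lists, and both hairpins lie in introns of Mirc35hg. Their sequences differ in the seed and are therefore no family.
miR-182-5p: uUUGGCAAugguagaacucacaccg
miR-183-5p: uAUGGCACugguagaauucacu

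The 6 loci of the AUUGCAC family that carried Ago2 peaks had 17 to 738 reads in siSfpq cells (median 185.5), and 5 of the 6 had 14 to 20 reads in control cells. miR-92a-3p had 738 reads at Mir92-1 in siSfpq cells and 20 in control cells, and 187 reads at Mir92-2 in siSfpq cells and 16 in control cells. miR-92b-3p had 404 reads in siSfpq cells and 19 in control cells. The lowest member was miR-367-3p, with 17 reads in siSfpq cells and no control peak.

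Other arms among the highest of either list were spread over the genome. miR-296-3p, from an imprinted locus, had 434 reads in siSfpq cells and 21 in control cells, and its neighbour miR-298-5p had 229 and 15. miR-10b-5p, which lies in the Hoxd cluster, had 362 reads in siSfpq cells and 17 in control cells. In the miR-181 family, miR-181a-5p at Mir181a-1 had 110 reads in siSfpq cells and 30 in control cells, the highest control count on a hairpin after that of miR-6236. miR-181b-5p at Mir181b-2 had 182 reads in siSfpq cells and 24 in control cells, and miR-181a-2-3p had 49 and 18. miR-181a-5p and miR-181b-5p each have the same sequence at 2 loci, so their counts cannot be assigned to 1 locus. At the other locus miR-181a-5p (Mir181a-2) had 12 reads in each list. miR-181b-5p (Mir181b-1) had 43 in siSfpq cells and 15 in control cells. miR-151-3p, annotated to its host Ptk2, had 208 reads in siSfpq cells and 16 in control cells. The peaks on miR-5099 (775 reads), miR-5114 (496 reads) and miR-6238 (259 reads) were in the siSfpq list and not in the control list. That on miR-5114 was 338 nt long, has no strand and extends beyond the hairpin.

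The miR-290 cluster (mm10, chr7:3218626-3220841) is a marker of pluripotent cells. Ago2 peaks in siSfpq cells lay on 6 of its 9 annotated hairpins, with 19 to 418 reads, and control peaks on 2 of 9. miR-292a-3p stood highest, with 418 reads in siSfpq cells (379 to 460) and 18 in control cells (10.7 to 28.4). miR-293-3p had 59 reads in siSfpq cells and 10 in control cells. The other siSfpq peaks, without a control peak, held 112 reads on miR-292a-5p, 68 on miR-291a-5p, 29 on miR-294-3p, 26 on miR-295-3p, 21 on miR-291a-3p and 19 on miR-290a-5p. The arms read here with the AAGUGCU seed were thus among the lower ones of the cluster in siSfpq cells. miR-292a-3p, the highest arm, had no sequence here, so its seed was not read. No Sfpq, Ago2-let-7a or recruited peak lay on these hairpins, and the nearest Sfpq peaks to the 2 control peaks were 37281 and 38433 nt away.

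The miR-302 cluster (mm10, chr3:127545228-127545807) had siSfpq peaks on all 5 hairpins and control peaks on 3 of 5. Its host is annotated as Gm51018. miR-302a-3p had 180 reads in siSfpq cells (155 to 208) and 15 in control cells (8.4 to 24.7), and miR-302a-5p had 112 reads in siSfpq cells and 20 in control cells. miR-302d-3p had 163 reads in siSfpq cells and 12 in control cells, and miR-302b-3p had 96 and 13. The AAGUGCU arms read in this cluster, miR-302b-3p and miR-302d-3p, thus had 96 and 163 reads in siSfpq cells. miR-302a-3p had no sequence here and miR-302c-3p had the seed AGUGCUU, so neither was counted among them. Both arms of Mir302a were covered in both lists. The remaining siSfpq peaks held 31 reads on miR-302c-3p, 17 on miR-367-3p and 16 on miR-302c-5p. No control peak of the cluster was dismissed. It was the only 1 of these 6 groups, apart from let-7, with Sfpq peaks on hairpins: a peak of dCLIP score 12 covered parts of Mir302c and Mir302a, and another of score 12 touched miR-367-3p.

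The miR-17-92 cluster (mm10, chr14:115043671-115044506), a growth-promoting cluster first known from lymphoma, had siSfpq peaks on 5 of its 6 hairpins and control peaks on 2. The peak on miR-92a-3p held 738 reads in siSfpq cells and 20 in control cells. The other siSfpq peaks were low, with 28 reads on miR-20a-5p, 26 on miR-17-5p, 18 on miR-17-3p, 15 on miR-18a-5p and 14 on miR-19a-3p. miR-17-3p, the arm opposite the family's seed arm, had the other control peak, with 12 reads, and an Ago2-let-7a peak of score 9. The nearest Sfpq peak was 510395 nt away from the miR-92a-3p peak.

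Its paralogs showed a flatter profile. In miR-106a-363 (mm10, chrX:52741693-52742567) siSfpq peaks lay on 5 of 6 hairpins, with 187 reads on miR-92a-3p, 76 on miR-20b-5p, 61 on miR-363-3p, 24 on miR-106a-5p and 22 on miR-19b-3p. Control peaks lay on miR-92a-3p (16 reads) and miR-363-3p (14 reads). In miR-106b-25 (mm10, chr5:138165321-138165818), within an intron of the replication gene Mcm7, all 3 hairpins had siSfpq peaks, with 184 reads on miR-25-3p, 171 on miR-93-5p and 112 on miR-106b-3p. Control cells had 15 reads on miR-25-3p and 13 on miR-93-5p. In each of these 3 paralogous clusters an AUUGCAC arm had the highest siSfpq count. In miR-106b-25 it was miR-25-3p, whose interval (158 to 213) overlaps that of miR-93-5p (146 to 199), so their order is uncertain. In miR-17-92 and miR-106a-363 the highest arm was miR-92a-3p, whose reads cannot be assigned to 1 of its loci. The split of 738 and 187 reads between Mir92-1 and Mir92-2 is thus uncertain, and with it the flatter profile of miR-106a-363.

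**Figure D3:**
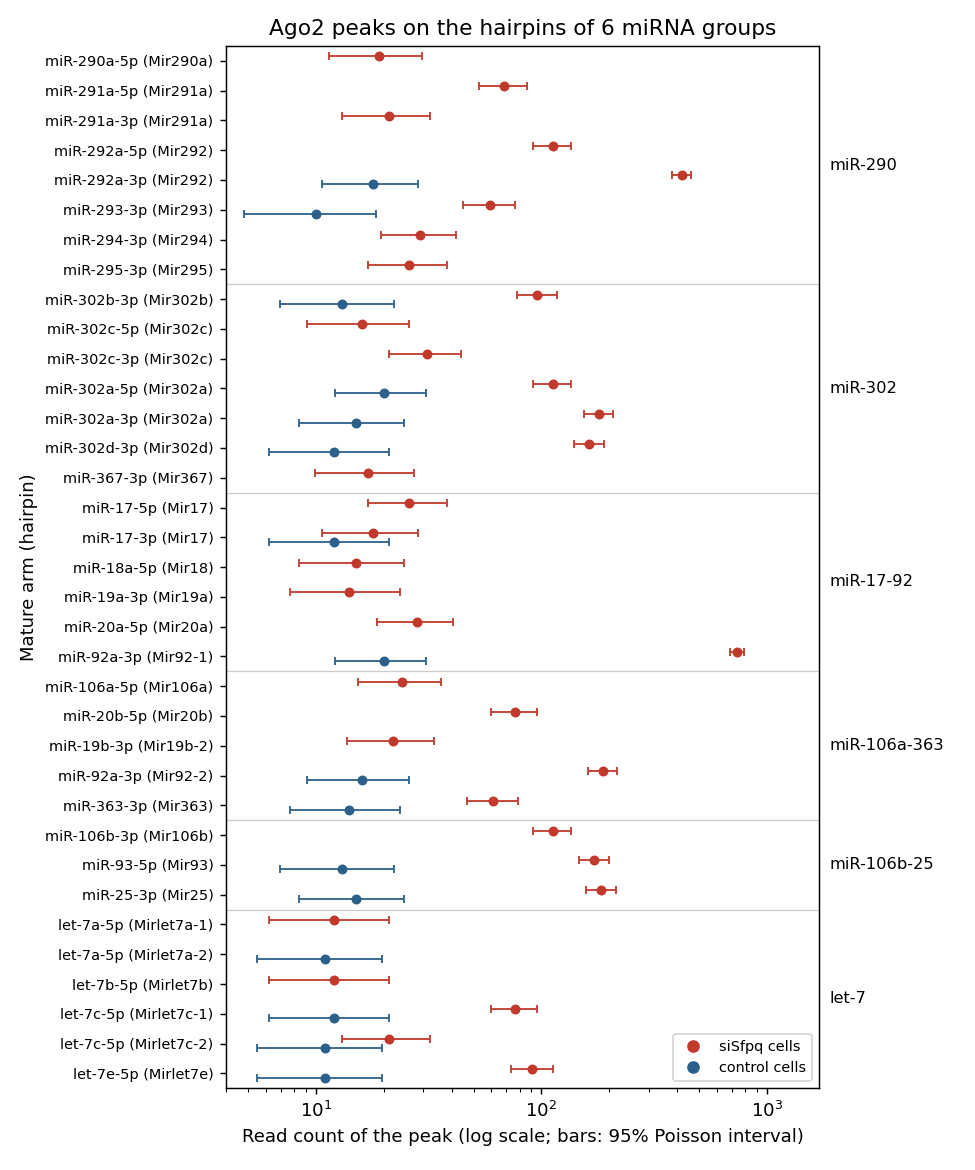
Read count of the Ago2 peak on each mature arm of 6 miRNA groups in siSfpq cells (red) and control cells (blue), on a log axis with 95% Poisson intervals. A missing point means that no peak was listed; counts run from 12 to 738 in siSfpq cells and from 10 to 20 in control cells.

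Of the miR-290 and miR-302 loci, 11 hairpins served as markers of the cell line. All 11 carried a siSfpq peak and 5 of 11 a control peak, while Mir290b, Mir291b and Mir292b, which stand in the miR-290 cluster and were not on the marker list, had none in either list. The hairpins chosen to mark other cells had none in any of the 5 lists: 6 neural hairpins (miR-9 and miR-124), 2 of blood (miR-142 and miR-223), 5 of muscle (miR-1, miR-133a and miR-206) and 1 of liver (miR-122). This covers the chosen hairpins only and not all miRNAs of these tissues. The miR-9 host transcript Mir9-3hg had Ago2 peaks off the hairpin, with 285 and 24 reads in siSfpq cells and 10 in control cells. The heart miRNAs miR-208a-3p and miR-208b-3p, which lie in introns of the myosin genes Myh6 and Myh7, were not on the marker list and had 32 and 235 reads in siSfpq cells and no control peak. Other hairpins off the marker list also had a siSfpq peak and no control peak, such as Mir375 (46 reads), Mir155 (42 reads) and Mir126a (24 reads).

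The let-7 family (12 hairpins with Mir98) also had Ago2 peaks without the mimic. They lay on 5 hairpins in siSfpq cells, with 12 to 91 reads (median 21), and on 4 in control cells, with 11 to 12 reads. Over all 1180 annotated hairpins, 178 had a siSfpq peak and 49 a control peak. The median over all peaks was 22 reads in siSfpq cells and 12 in control cells. let-7e-5p, in an exon of Spaca6 and annotated to that gene, had 91 reads in siSfpq cells (73.3 to 112) and 11 in control cells (5.49 to 19.7). let-7c-5p had 76 reads at Mirlet7c-1 in siSfpq cells and 12 in control cells, and 21 reads at Mirlet7c-2 in siSfpq cells and 11 in control cells. Both loci share the let-7c-5p sequence, so the split between them is uncertain. let-7a-5p at Mirlet7a-1 and let-7b-5p had 12 reads each in siSfpq cells and no control peak, whereas Mirlet7a-2 had a control peak of 11 reads without a strand and no siSfpq peak. These counts are near the minimum of 10 reads that the file headers give, and a locus without a peak is only below what was listed.

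With the let-7a mimic, 6 let-7 hairpins carried an Ago2-let-7a peak. The dCLIP score was 27 on Mirlet7a-2, 18 on Mirlet7c-1, 13 on Mirlet7c-2, 11 on Mirlet7a-1, 10 on Mirlet7b and 9 on Mirlet7d. A score measures gain over control cells and is not a read count. At Mirlet7a-1 and Mirlet7a-2 reads of the transfected mimic have the sequence of the endogenous arm and cannot be told apart from it. The peaks on let-7b, let-7c and let-7d lie on arms of other sequence, and how many of their reads came from the mimic by mismatched mapping was not tested. Another peak, of score 12, lay on the strand opposite Mirlet7b. None of the recruited peaks lay at a let-7 locus.

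The neighbours of let-7 in its clusters, miR-99, miR-100 and miR-125, had a similar range. In siSfpq cells a single peak of 122 reads covered both arms of Mir99b, and miR-125a-5p had 40 reads and miR-125a-3p 18. Control cells had 11 reads on miR-99a-5p and 10 on miR-99b-5p.

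The imprinted Dlk1-Dio3 region (mm10, chr12:109544541-109747960), whose miRNAs are expressed from the maternal allele, had more hairpins with a siSfpq peak than any other of the groups examined. Of its 57 annotated hairpins 26 had siSfpq peaks, 29 in all, with 12 to 933 reads and a median of 27. As a share this was lower than in smaller groups such as miR-302 (5 of 5) and miR-290 (6 of 9). Over all annotated hairpins 178 of 1180 had a siSfpq peak. The control list had a single peak there, on miR-541-5p, with 10 reads against 933 in siSfpq cells (874 to 995, rank 161). miR-127-3p had 432 reads, miR-409-3p 265 and miR-379-5p 173 in siSfpq cells, with no control peak. The recruited list had peaks of score 10 to 15 on 5 of these hairpins, those of miR-370-3p, miR-379-5p, miR-433-3p, miR-323-3p and miR-434-3p, and each of these arms had a siSfpq count peak too, with 40 to 173 reads. The Ago2-let-7a list had a peak on miR-541-5p with a score of 13.

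The large Sfmbt2 cluster, a rodent array of 71 hairpins with the symbols miR-297, miR-466, miR-467 and miR-669, was sparsely covered. Only 6 of its hairpins had a siSfpq peak, with 11 to 131 reads, and 2 had a control peak. Each arm with a peak there is annotated at 1 locus, whereas many hairpins of the array are numbered copies, such as Mir669a-1 to Mir669a-12. Whether reads of repeated copies were lost in mapping was not tested, so few listed peaks need not mean little bound Ago2. miR-669c-5p had 131 reads in siSfpq cells and 15 in control cells, and miR-467c-5p had 58 and 10. The highest member of all Ago2 count peaks carried a symbol of this cluster without lying in it: a siSfpq peak of 20190 reads annotated to Mir466d lay in an intron of Camk1d, 5132589 nt from the nearest hairpin of that name, and overlapped a control peak of 71 reads.

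The presence of peaks with siSfpq was next examined from the control list. Of the 69 control miRNA peaks, 62 were touched by an Ago2 peak of siSfpq cells on the same strand (89.9%, 80.5 to 95), beside 80.4% of all control peaks. On hairpins 48 of 50 were touched (96.0%, 86.5 to 98.9) and off hairpins 14 of 19 (73.7%, 51.2 to 88.2). The interval on hairpins lies above the share of all peaks, and the interval off hairpins contains it. The 7 untouched peaks were those of Mir99a, Mirlet7a-2, Mir669a-4, Mir3470b, Mir3103 and 2 of Mir3063, all with 10 to 15 reads. From the other side, 46 of 176 siSfpq peaks on hairpins touched a control peak (26.1%, 20.2 to 33.1) and 12 of 181 off hairpins did (6.63%, 3.83 to 11.2), beside 5.38% of all siSfpq peaks.

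The authors' dismissed lists give another reading of the same loci. Of the 69 control peaks 30 were dismissed (43.5%, 32.4 to 55.2), beside 30.4% of all control peaks, so the lower end of the interval lay just above the share of all peaks. Among peaks with at least 20 reads this did not hold, with 4 of 14 members dismissed (28.6%, 11.7 to 54.6) beside 36.8% of all such peaks. On hairpins 21 of 50 were dismissed (42.0%, 29.4 to 55.8), an interval that contains 30.4%. These 21 held 10 to 151 control reads (median 12), and the 29 kept ones 10 to 151 (median 15). Of the 30 dismissed peaks, 28 were touched by a siSfpq peak (93.3%, 78.7 to 98.2), and over all genes 506 of 627 were (80.7%). A dismissed miRNA peak was therefore in most cases still listed as a peak in siSfpq cells. The 20 dismissed hairpin peaks with a siSfpq peak had 18 to 17696 reads in siSfpq cells (median 70.5), and the 28 kept ones 12 to 17696 (median 171.5).

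Stem cell and let-7 hairpins were found among both dismissed and kept peaks. Dismissed were the control peaks on miR-292a-3p, miR-293-3p, miR-17-3p, miR-93-5p, miR-363-3p, let-7c-5p at both loci, and, by position, let-7e-5p. Kept were those on all 4 covered miR-302 arms, on miR-92a-3p at both loci, miR-25-3p and miR-92b-3p, and on let-7a-5p at Mirlet7a-2. In the AUUGCAC family 1 of 5 control loci was dismissed and in the let-7 family 3 of 4. Of the 3 overlapping peaks on miR-6236, 1 was dismissed, so that the same site stood on both sides.

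The dismissed lists are split by the distance to an Sfpq peak, as close (within 500 nt), far (500 to 7000 nt) and very far (beyond 7000 nt). The 30 dismissed members fell into 11 close, 11 far and 8 very far, and all 627 dismissed control peaks into 245, 228 and 154. Measured to the deposited Sfpq peaks, 7 of the 11 close members lay within 500 nt (63.6%, 35.4 to 84.8), beside 187 of 245 over all genes (76.3%). The other 4 were miR-22-3p (23144 nt), miR-293-3p (38433 nt), miR-34b-5p (209858 nt) and miR-669c-5p (432727 nt). The class was not recomputed by the rule the authors used, and for these loci it cannot be read as a distance in the deposited Sfpq list.

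Of the 33 Ago2-let-7a members 17 were dismissed (51.5%, 35.2 to 67.5), beside 80.2% of all Ago2-let-7a peaks. The interval lies below the share of all peaks, but among peaks with a score of at least 14 this did not hold, with 9 of 13 members dismissed (69.2%, 42.4 to 87.3) beside 73.0% of all such peaks. Dismissed peaks were 15 of 22 off the hairpins (68.2%, 47.3 to 83.6) and 2 of 11 on them (18.2%, 5.14 to 47.7), those of miR-21a-5p and miR-1893. On let-7 hairpins 0 of 6 were dismissed, for which the Wilson interval reaches 39.0%. For this call the authors also required that siSfpq and control cells without the mimic did not differ at the site, and the part of this filter in the share at miRNA loci was not tested.

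**Figure D4:**
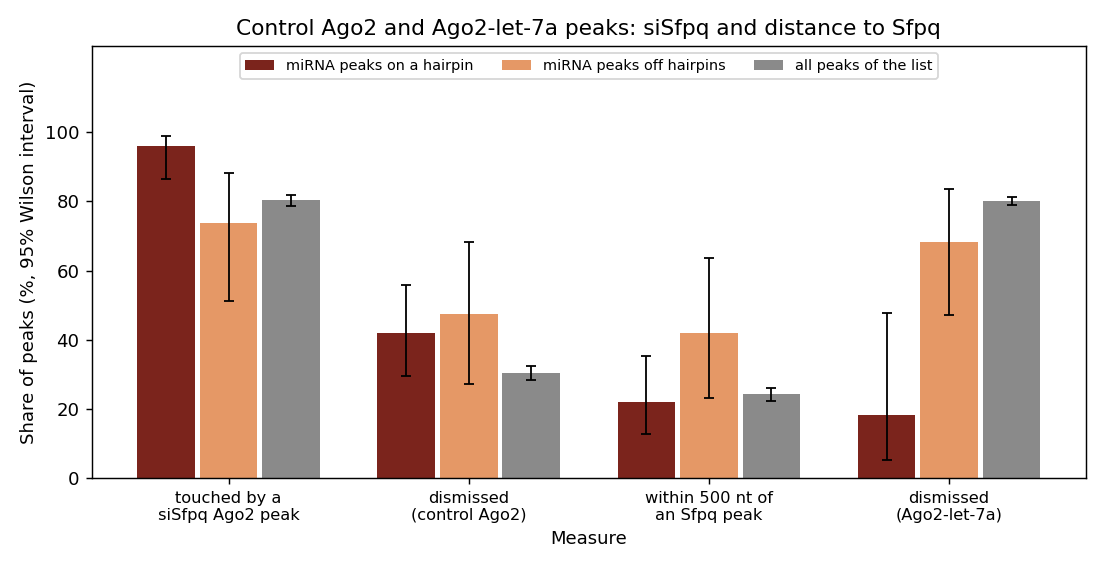
Share of peaks in percent, with 95% Wilson intervals, that were touched by a siSfpq Ago2 peak, were dismissed, or lay within 500 nt of an Sfpq peak, for miRNA peaks on a hairpin, miRNA peaks off hairpins and all peaks of the list. Small groups such as the 11 Ago2-let-7a peaks on hairpins (18.2% dismissed) have wide intervals.

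Sfpq peaks lay within 500 nt of 19 of the 69 control members (27.5%, 18.4 to 39.0), beside 24.2% of all control peaks, an interval that contains the share of all peaks. On hairpins 11 of 50 were this near (22.0%, 12.8 to 35.2) and off hairpins 8 of 19 (42.1%, 23.1 to 63.7). In siSfpq cells 79 of 357 Ago2 members were this near (22.1%, 18.1 to 26.7), beside 23.4% of all siSfpq Ago2 peaks. Of the recruited members 58 of 90 were (64.4%, 54.2 to 73.6), beside 63.6% of all recruited peaks. Both intervals contain the share of all peaks. Of the Ago2-let-7a members 17 of 33 were (51.5%, 35.2 to 67.5), beside 30.7% of all Ago2-let-7a peaks, so that here the interval lies above the share of all peaks. That interval treats the peaks as independent, although 5 of the 33 carried the symbol Mir5114 and 3 the symbol Mir3063. Loci were not counted once for this share.

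Of the 203 Sfpq members, 163 of the 183 off the hairpins lay within 1000 nt of the hairpin they are named after (89.1%, 83.7 to 92.8). The share was 88.5% for recruited, 72.7% for Ago2-let-7a, 68.4% for control Ago2 and 62.4% for siSfpq Ago2 members. Of the 181 siSfpq members off hairpins, 65 were named after a hairpin on another chromosome or without annotation. The highest score, 168, was at Mir5114 in the fatty acid desaturase gene Scd2, where 3 other peaks scored 101, 73 and 39. High scores were also found at Mir677 in the ATP synthase gene Atp5b (80), at Mir7-1 in a coding exon of Hnrnpk (59) and at Mir3063 in the gene of the let-7 target Igf2bp1 (53, 47 and 46). Off the hairpins 47 Sfpq peaks lay in coding exons and 71 in other exons of the host, 27 in introns and 38 in no annotated host.

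Mir130a was among the loci without an annotated host gene, unlike the high-scoring loci named above. Its symbol was carried by 10 Sfpq peaks of score 10 to 21, more than any other member symbol had. A pair of them lay on the hairpin, with 17 on miR-130a-3p and 12 on miR-130a-5p, while Ago2 had 41 reads on miR-130a-3p in siSfpq cells and no control peak. Several let-7 loci also had Sfpq peaks beside the hairpin, though fewer. The scores were 15, 14, 9 and 9 beside Mirlet7a-1 and 15, 9 and 8 beside Mirlet7d. They were 16 beside Mirlet7i and 9 beside Mirlet7g, which has the host Wdr82. All these peaks lay off the hairpins. On Mirlet7a-2 the Sfpq peak (score 20) lay on let-7a-5p itself, where the control Ago2 peak and the Ago2-let-7a peak also lay.

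**Figure D5:**
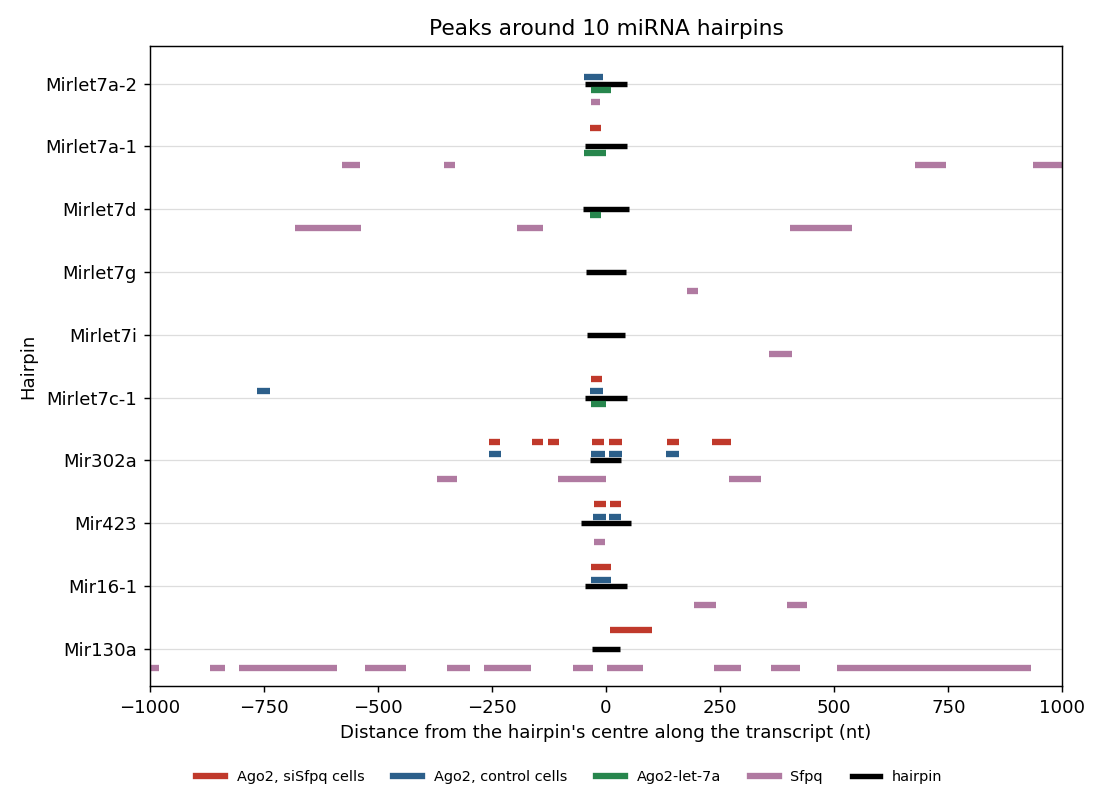
Peaks around 10 miRNA hairpins, drawn by their distance in nt from the hairpin's centre along the transcript, for Ago2 in siSfpq cells, Ago2 in control cells, Ago2-let-7a and Sfpq. Black bars are the hairpins; Ago2 peaks lie on them, and most Sfpq peaks, such as those around Mir130a and Mirlet7a-1, lie beside them.

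Of the 190 arms with an Ago2 peak in either count list, 11 also carried an Sfpq peak. The share of all Ago2 peaks that touch an Sfpq peak was not computed, so whether this is many or few is not known. The Sfpq scores were 53 on miR-3063-3p, 34 on miR-703, 20 on let-7a-5p, 17 on miR-130a-3p, 15 on miR-704, 14 on miR-208a-3p, 12 on miR-302a-5p, miR-367-3p and miR-8094, 10 on miR-423-5p and 9 on miR-719. Of these, miR-423-5p had 220 reads in siSfpq cells and 11 in control cells and was dismissed as close, whereas miR-302a-5p had 112 and 20 and was kept. miR-3063-3p had 139 reads in siSfpq cells and no control peak.

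Off the hairpins, the part of the host gene under a miRNA symbol differed between lists. Recruited members off hairpins lay in coding exons in 34 of 78 cases, in other exons in 40, in introns in 1 and in no gene in 3. In siSfpq cells 67 of 181 Ago2 members off hairpins lay in coding exons, 27 in other exons, 22 in introns and 65 in no annotated host. Shares over all peaks were not computed for these classes. The highest recruited scores were 89, 79 and 72 at Mir5114 in Scd2, of which the last overlapped the hairpin, 87 at Mir5121, 77 on miR-208b-3p, 69 at Mir3064 in the RNA helicase gene Ddx5, and 42 each at Mir677 and Mir6376. Among Ago2-let-7a members the highest scores were 52 at Mir466d, 34 at Mir6340 in Rab22a, 28 and 19 at Mir5114, 27 on Mirlet7a-2, 25 at Mir3063, and 18 each at Mirlet7c-1, Mir1893 and Mir1902.

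A few symbols joined several lists. Control Ago2, Ago2-let-7a, recruited and Sfpq peaks all occurred at Mir3063 (in Igf2bp1), Mir5113 (in Tnrc6b, which encodes a partner of Argonaute), Mir5114 (in Scd2) and Mir6340 (in Rab22a). Of these 4 kinds, 5 further symbols had 3, namely Mir3064, Mir421, Mir6244, Mir6546 and Mirlet7a-2, and 47 symbols had 2. A shared symbol need not mean a shared miRNA locus. The Ago2-let-7a peak of Mir421 lay in Cbx5 on chromosome 15, while the hairpin is on chromosome X, and that of Mir6244 lay opposite its hairpin. The share of all gene symbols with several kinds was not computed. The remaining 114 symbols had 1 kind, and 132 had only a siSfpq Ago2 peak. At Mir3063, for example, the 2 control peaks (15 and 10 reads) lay in an exon of Igf2bp1 outside its coding part and off the hairpin.

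Peaks were also counted in genes of miRNA processing. Of 12 such genes, Ago2 peaks lay in 4 in siSfpq cells and in 1 in control cells, and Sfpq peaks lay in 7, from lists of 29734, 2065 and 29715 peaks. Lin28a, which blocks let-7 maturation and is itself a let-7 target, had 3 siSfpq Ago2 peaks (24 to 436 reads), 4 control Ago2 peaks (14 to 43 reads), 16 recruited peaks (score 10 to 159), 7 Ago2-let-7a peaks (11 to 27) and 23 Sfpq peaks (8 to 113). Its paralog Lin28b had 10 Sfpq peaks (8 to 20), all in the 3′UTR, and no Ago2 peak. Dicer1 had 3 siSfpq Ago2 peaks (14 to 42 reads), 2 Ago2-let-7a peaks (10 and 16) and 9 Sfpq peaks (8 to 17), and the Drosha partner Dgcr8 had 5 Sfpq peaks (9 to 23), all intronic.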

How the data were processed

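P19 cells were transfected and subjected to Ago2 or Sfpq HITS-CLIP in 5 groups of 3 libraries, grouped here by their labels. The authors mapped reads to mm10 with STAR and then Bowtie2, with cutadapt also named in the submitters' processing notes, and merged replicates before calling peaks; their tool versions were not given in the sources used here. For the control and siSfpq Ago2 lists the deposited value is the authors' pyicoclip read count per peak, with a minimum of 10 reads per the file headers. For the Ago2-let-7a, recruited and Sfpq lists it is the authors' dCLIP score, with a threshold of 7. The 6 dismissed lists deposited by the authors hold positions alone, from a Jaccard index of at least 0.1. Depth per library is unknown from these files.

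Peaks were matched by position and strand, with touching meaning an overlap of at least 1 nt. Hairpins, arms, hosts and mature sequences came from RefSeq GRCm38.p6, the build also called mm10, which held 1180 hairpins on placed chromosomes. Hairpins on the same strand counted. Shares have 95% Wilson intervals and named counts exact 95% Poisson intervals, computed with Python 3.11.15, pandas 2.3.3, numpy 2.4.6 and scipy 1.17.1. The overlap functions were tested on simulated data. PCR reads are not independent molecules, and neighbouring peaks are not independent.

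Members, lists and comparisons were chosen with earlier results of these data known. Named were loci with the 15 highest counts on a hairpin in either Ago2 count list and cluster members with any peak. The 8 highest members of each scored list and loci with peaks of several kinds were named too. Other loci are named as members of a small count or after their values were seen, as with the heart miRNAs and other hairpins off the marker list. Alternatives tried were the overlap rule, stricter counts and scores, membership by position, loci counted once, hairpin limits and distance limits.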

Additional observations from a re-analysis of the deposited data

How the results depend on the processing

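Of 19 alternatives, 13 moved the share by less than its interval and 6 moved it further. The share of control miRNA peaks touched by a siSfpq peak, 89.9%, was 73.9% when at least 50% of both peaks had to overlap (64.7% of all control peaks), 100% for the 14 peaks with at least 20 reads (92.3% of all such peaks), and 96.4% with members taken by position on a hairpin. The dismissed share of control miRNA peaks, 43.5%, was 28.6% for the 14 peaks with at least 20 reads, where all control peaks of that count gave 36.8%, so the excess over all peaks did not hold there. The dismissed share of Ago2-let-7a members, 51.5%, was 69.2% for the 13 with a score of at least 14 (73.0% of all such peaks, a value within its interval, so the deficit did not hold there) and 18.2% with members by position. The causes were not tested. The share on hairpins (71.4% to 72.5%) and the share near Sfpq (20.0% to 31.9%) stayed within their intervals. No paired analysis was possible because the lists were called on merged replicates and hold no value per sample; for the same reason no library could be left out. Control counts of 10 to 20 reads have Poisson intervals about as wide as the count, and loci under 10 reads were not listed.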
